A study of Sus scrofa with 48 samples.

Results

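MHC class II molecules were followed here in pig blood through the probes of their genes. They are pairs of an alpha and a beta chain that present peptides from the endosomes of B cells, monocytes and dendritic cells to CD4+ T cells. In the pig they are called swine leukocyte antigens (SLA), with SLA-DR and SLA-DQ as the molecules of the cell surface. SLA-DM loads peptides in the endosome, SLA-DO restrains SLA-DM, CD74 is the invariant chain that escorts newly made class II pairs, and CIITA is the transactivator that switches these genes on. The DR beta and DQ genes are known to vary strongly between individuals, and each probe was kept apart.

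The members were chosen by the gene name that the array design gives to a spot. Of 10 genes looked up, 8 had spots, 28 in all, and all 28 were among the 37113 spots that passed the quality filter of the study. There were 7 probes of SLA-DRA, 4 of SLA-DRB1, 2 of SLA-DQA1, 4 of SLA-DQB1, 2 of SLA-DMA, 2 of SLA-DMB, 3 of SLA-DOB and 4 of CD74. No spot carried the name SLA-DOA or CIITA, so these 2 genes have no value by name. A further 12 spots stood close to the members by name or accession and were kept beside them without being counted. Among these were 7 probes named SLA-DQA, whose accession a RefSeq table (assembly Sscrofa11.1) gives to SLA-DQA1. The scanner files call another 2 spots SLA, a Src-like adaptor, whereas the RefSeq table gives their accession to SLA-DOA.

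The blood came from 48 castrated male French Large White pigs of the eighth generation of a divergent selection on residual feed intake (RFI), the part of feed intake that growth and body maintenance do not account for. Low RFI pigs (RFIneg) are the more efficient line and high RFI pigs (RFIpl) the less efficient one. In each line, 12 pigs were fed a low-fat, low-fiber (LF) diet and 12 a high-fat, high-fiber (HF) diet, in which straw and oils replaced part of the cereals. Blood was collected whole at exsanguination, after a meal and at an age of 132 days, and the RNA of each pig was hybridized alone to 1 array, so that a pig is 1 replicate and no RNA was pooled. The line contrast holds every difference between the selected lines.

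The arrays lay on 6 slides, each with 2 pigs of every group, and were scanned on 3 days. Between any 2 arrays the Pearson correlation was 0.932 to 0.995. The median spot was 5.91 to 16 times brighter than its local background, and each of the 28 class II probes was well above background on 48 of 48 arrays. The number of arrays limits the precision. A column of the deposited table, that of a high RFI pig fed HF, repeated a single value 37090 times, and its values were rebuilt from the scanner file. A value below is the log2 of the spot intensity minus the median of its array. It ranks pigs at 1 probe and does not rank probes or genes against each other.

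The short sequences below are 60-base probes as the array design lists them, 5′ to 3′, and are shown so that DQ and DR probes that overlap can be compared. The first pair are a SLA-DQA1 and a SLA-DQA probe that align over 59 bases, where capitals mark the bases that differ.
SLA-DQA1 A_72_P743257: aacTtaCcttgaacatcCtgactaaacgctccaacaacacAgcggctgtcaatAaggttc
SLA-DQA A_72_P763148: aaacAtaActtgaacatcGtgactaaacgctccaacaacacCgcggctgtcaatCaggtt
They differ at 5 bases of the aligned stretch, T4A, C7A, C18G, A41C and A54C, with the base of the SLA-DQA1 probe first and positions counted from 1 at its 5′ end. The next pair are probes of SLA-DRB1 that share a run of 38 bases, given in capitals.
SLA-DRB1 A_72_P079096: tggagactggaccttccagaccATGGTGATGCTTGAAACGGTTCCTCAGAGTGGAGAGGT
SLA-DRB1 A_72_P626735: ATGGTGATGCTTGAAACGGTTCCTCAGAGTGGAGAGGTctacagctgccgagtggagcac
These 4 probes can each be read in 1 frame without a stop codon. The other SLA-DQA1 probe, A_72_P765361, aligns with the SLA-DQA probe A_72_P244477 over 56 bases with 3 mismatches. Both of these hold the polyadenylation signal AATAAA and have 0 frames without a stop.

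The first question was whether blood class II transcripts differed between the RFI lines. They were lower in low RFI pigs at 23 of the 28 probes, against 41.4% of all retained probes, and the median difference (low minus high RFI) was -0.11 on the log2 scale, against 0.018 over all retained probes. The thresholds of the study, a P-value under 0.01 and a fold change (FC) above 1.1, were applied here to limma's moderated test and are called the criterion below. By it 6 of the 28 probes were differentially expressed (DE). With the plain analysis of variance that the methods of the study name, 5 were, as SLA-DRB1 A_72_P079096 then had P = 0.011. All 6 had a lower signal in low RFI pigs, which is 21.4% of the members. Of all retained probes, 5.78% passed in either direction and 3.09% passed as lower in low RFI pigs. The 6 member probes belonged to SLA-DQA1 (1 of 2 probes), SLA-DRB1 (4 of 4) and SLA-DQB1 (1 of 4). Alleles that differ under a probe can also change its signal. Such a difference and a lower transcript amount cannot be told apart here. The calls share pigs, and 4 of them share a gene, so they are not 6 independent results. After Benjamini-Hochberg (BH) adjustment over all 37113 probes 1 member stayed under 0.05, where 2.77% of all retained probes did. No probe of SLA-DRA, SLA-DMA, SLA-DMB, SLA-DOB or CD74 passed the criterion.

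**Figure D1:**
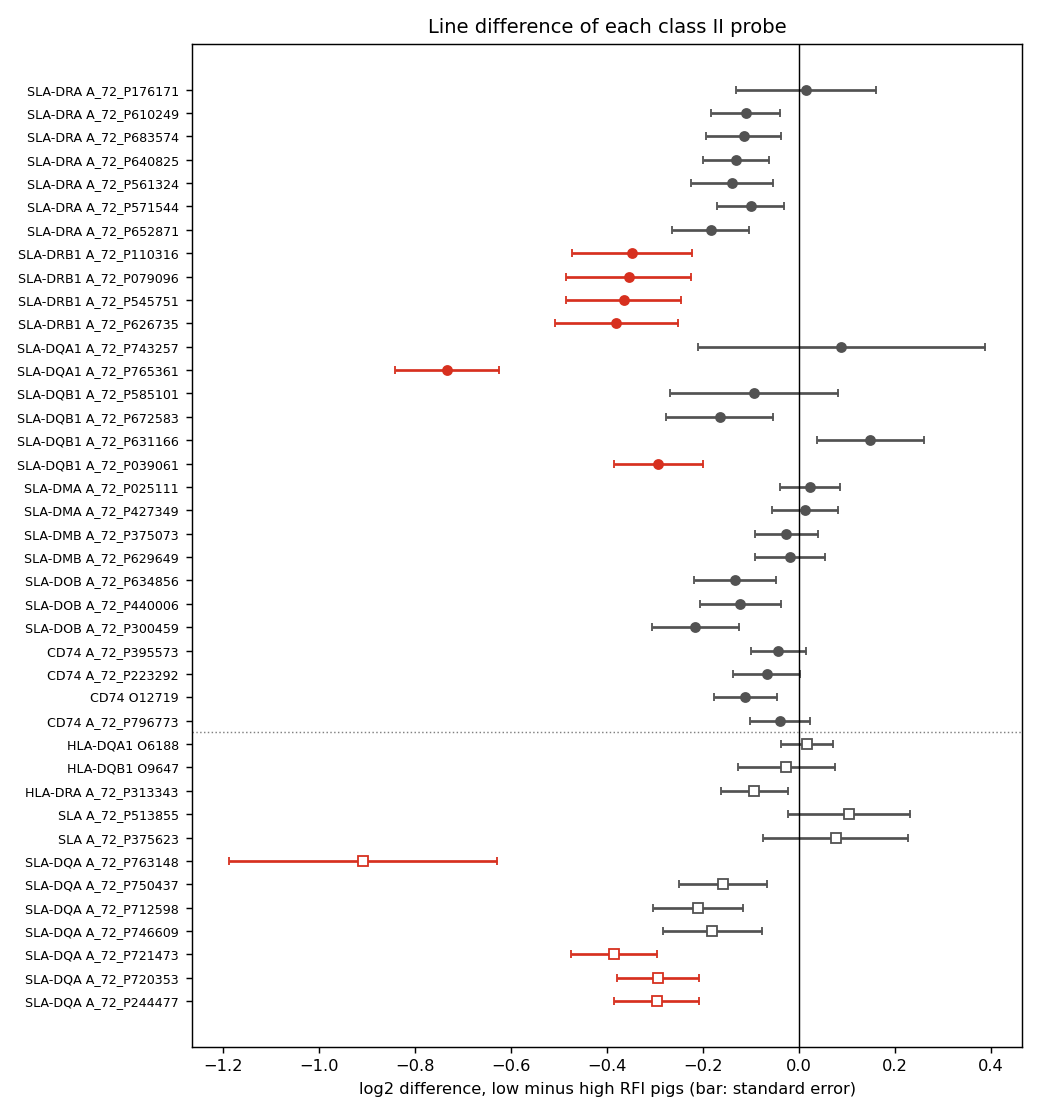
Line difference of each probe on the log2 scale (low minus high RFI, 24 pigs each, bar: standard error). Filled circles are the 28 member probes, open squares the 12 related probes that were not counted, and red marks probes past the criterion of the study; the red member probes are 4 of SLA-DRB1, 1 of SLA-DQA1 and 1 of SLA-DQB1, all left of 0.

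Whole blood is a mixture, and a lower value in bulk RNA cannot tell fewer cells of a type from less RNA per cell. Some marker probes of B cells, monocytes and dendritic cells passed the criterion as well. Of 10 B cell marker probes (7 genes), 9 were lower in low RFI pigs and 5 passed the criterion, among them MS4A1 (CD20, a B cell surface protein) at -0.36 (SE 0.07, BH-adjusted limma P = 0.0012) and 3 probes of BLNK, an adaptor of B cell receptor signalling, at -0.22 to -0.24. The mean of these markers ranged from 0.88 to 1.87 in low RFI and from 1.29 to 1.75 in high RFI pigs, and 19 of 24 low RFI pigs were under the high RFI median. Of 17 monocyte marker probes, 13 were lower and 4 passed, 3 of them of CD14, the lipopolysaccharide coreceptor. That mean ranged from -1.01 to -0.01 in low RFI and from -0.85 to 0.44 in high RFI pigs. For dendritic cells only 2 of 9 listed marker genes were found, TCF4 and XCR1, and 2 of their 4 probes passed as lower, both of TCF4. Of 20 T cell marker probes 0 were lower and 3 passed as higher, namely 2 of CD3D and 1 of CD8A. Of 7 red cell probes 6 had higher values in low RFI pigs and 1 passed as higher, of SLC4A1 (band 3) at 0.59, while the other SLC4A1 probe was at -0.08. Of 5 NK cell probes 1 passed as higher (KLRK1 at 0.33), of 9 neutrophil probes 1 passed as lower (CXCR2 at -0.42), and of 7 platelet probes 0 passed. In its blood cell counts, the study reported no significant line difference in lymphocytes, monocytes or neutrophils, and more red cells in low RFI pigs. B cells were not counted apart from other lymphocytes. The part of cell composition in the class II differences was not tested.

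SLA-DQA1, the alpha chain of the DQ pair, held the largest line difference among the members and also the widest spread, in different probes. At A_72_P765361 the lowest, median and highest values were 2.60, 3.23 and 3.97 in low RFI LF pigs. In low RFI HF pigs they were 2.56, 3.36 and 4.36. In high RFI LF pigs they were 3.5, 4.12 and 4.62, and in high RFI HF pigs 3.55, 4.0 and 4.66. The groups overlapped, but 23 of 24 low RFI pigs lay under the high RFI median of 4.04. The line difference was -0.73 (SE 0.11, FC -1.66, limma P = 1.5e-08, BH-adjusted P = 1.2e-05), and it was -0.81 among pigs fed LF and -0.65 among pigs fed HF. It was below 0 on all 6 slides, from -0.37 to -1.05, and on the 3 scan days it was -0.87, -0.40 and -0.98.

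The other SLA-DQA1 probe, A_72_P743257, had no such shift, with a line difference of 0.09 (SE 0.30, limma P = 0.77). Its values were 0.63, 2.59 and 4.36 (lowest, median, highest) in low RFI LF pigs and 0.81, 2.64 and 4.22 in low RFI HF pigs. In high RFI pigs they were 0.85, 2.42 and 3.06 on LF and 1.17, 2.34 and 3.39 on HF. The pigs did not form a single cloud. Between 1.31 and 2.10 lay a gap of 0.79 without any pig, with 16 pigs below it and 32 above, and 7 low RFI LF, 7 low RFI HF, 9 high RFI LF and 9 high RFI HF pigs were above. The 7 highest values were all of low RFI pigs in the plot of values by group, and the SD was 1.33 and 1.35 in the low RFI groups (LF, HF) against 0.72 and 0.74 in the high RFI groups. Equality of spread was not tested.

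**Figure D2:**
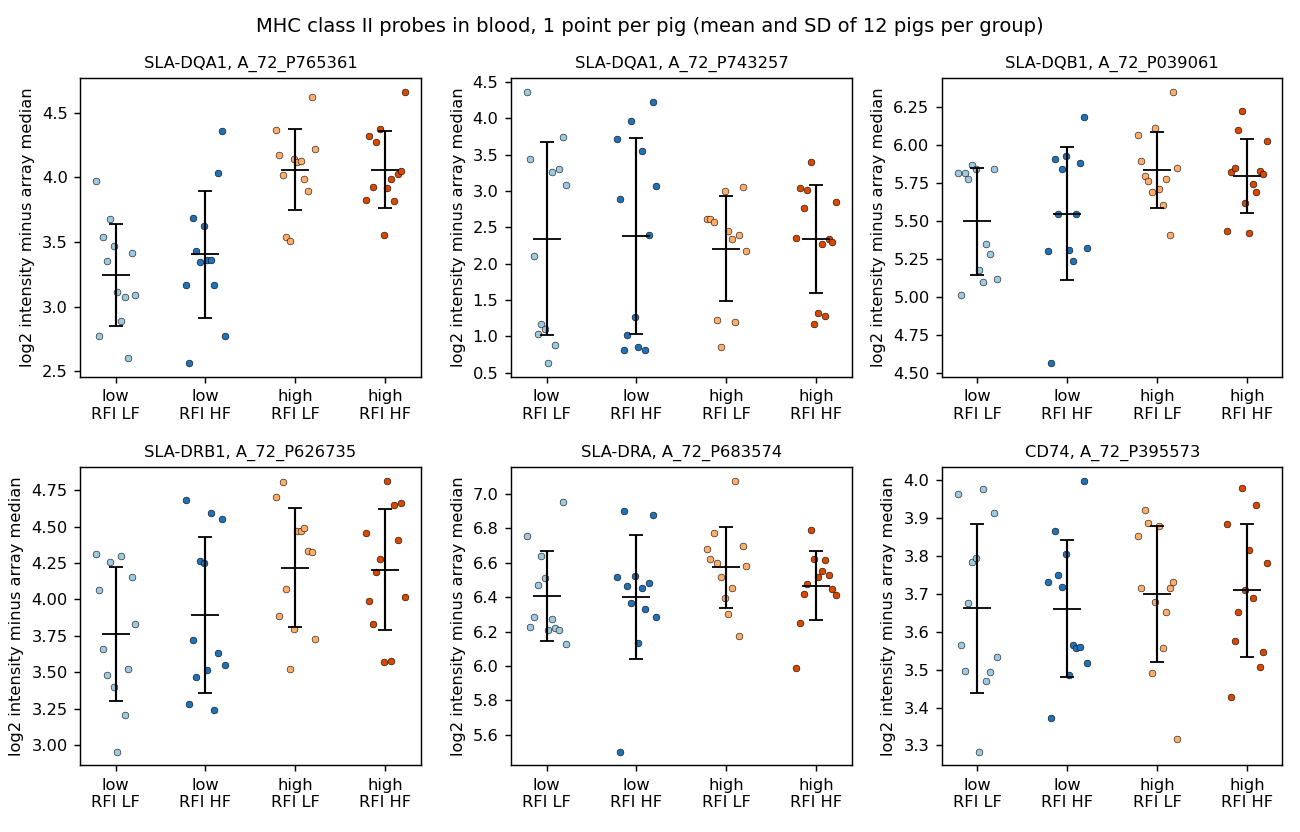
Log2 intensity minus the array median (y axis) at 6 probes, 1 point per pig, with the mean and SD of 12 pigs in each group. At SLA-DQA1 A_72_P765361 the high RFI groups have means of 4.06 and 4.06 against 3.25 and 3.40 in the low RFI groups, and at A_72_P743257 the pigs of each group split into a lower and an upper cluster.

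SLA-DQA A_72_P763148, which differs from it at the 5 bases shown above, had a median of 2.02 and 1.86 in low RFI pigs (LF, HF) and of 3.19 and 3.16 in high RFI pigs. Its line difference was -0.91 (SE 0.28, FC -1.88, limma P = 0.0021, BH-adjusted P = 0.065), and 21 of 24 low RFI pigs were under the high RFI median. For each pig, the value at A_72_P743257 minus that at A_72_P763148 was taken, a contrast chosen after the values had been seen and so given without a test. It ran from -0.89 over a median of 0.09 to 1.30 in low RFI pigs and from -0.98 over -0.80 to 0.16 in high RFI pigs. Of the 24 low RFI pigs, 12 lay above the highest high RFI pig. Its mean over the 24 low RFI pigs was 0.30 with an SD of 0.70, and over the 24 high RFI pigs it was -0.70 with an SD of 0.30.

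**Figure D3:**
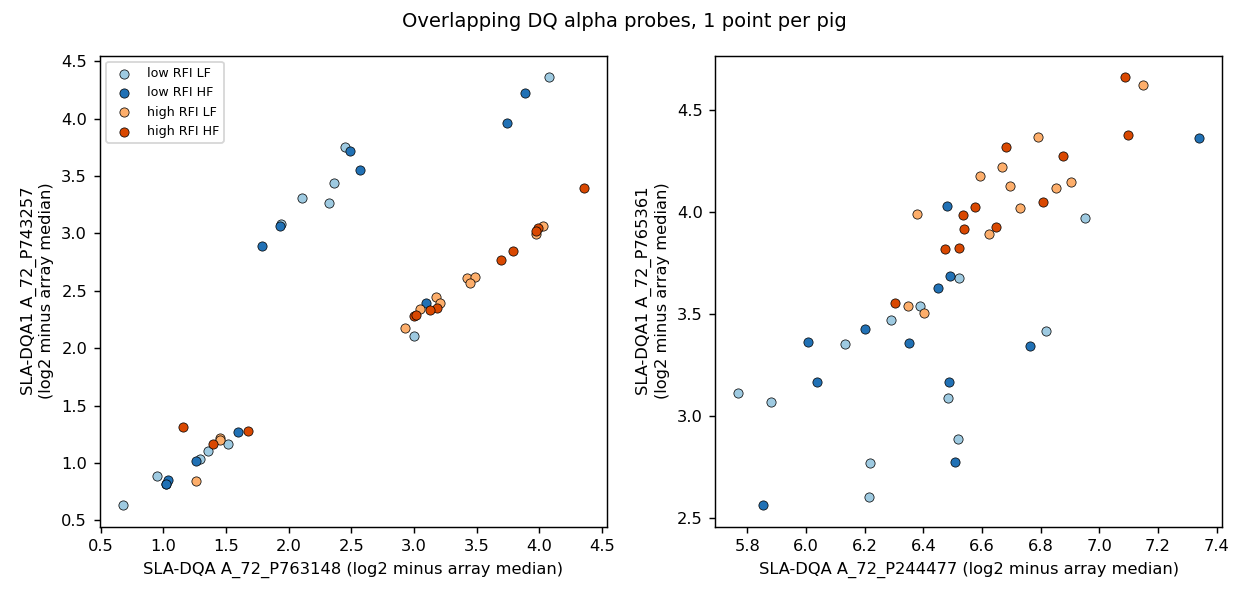
Values of overlapping DQ alpha probes against each other, 1 point per pig on log2 axes relative to the array median. On the left the pigs lie on separate arms, with a cluster of both lines at the lower left, an upper arm of low RFI pigs and a lower arm that holds most of the high RFI pigs; on the right 12 of 24 low RFI pigs have a lower difference between the probes than any high RFI pig.

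The same contrast for the 3′ pair, A_72_P765361 minus SLA-DQA A_72_P244477, was again chosen after the values had been seen. It ran from -3.73 over -2.93 to -2.45 in low RFI pigs and from -2.90 over -2.64 to -2.36 in high RFI pigs. Here 12 low RFI pigs lay under the lowest high RFI pig, and 23 of 24 were under the high RFI median. A_72_P244477 itself was lower in low RFI pigs by -0.30 (SE 0.09, FC -1.23, limma P = 0.0015, BH-adjusted P = 0.053).

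All 7 SLA-DQA probes were lower in low RFI pigs, with a median difference of -0.29, and 4 of them passed the criterion. After BH adjustment 2 of the 7 stayed under 0.05, A_72_P721473 at -0.39 (SE 0.09, limma adjusted P = 0.0072) and A_72_P720353 at -0.29 (SE 0.09, limma adjusted P = 0.049). A_72_P721473 had medians of 6.23 and 6.4 in low RFI (LF, HF) against 6.67 and 6.69 in high RFI pigs. The other 3 were A_72_P750437 at -0.16, A_72_P746609 at -0.18 and A_72_P712598 at -0.21, and the middle one shares runs of 30 and 35 bases with its neighbours in this list. The 9 probes named SLA-DQA1 or SLA-DQA ranged in line difference from -0.91 to 0.09, and the probe O6188, named HLA-DQA1, was at 0.02 (SE 0.05, limma P = 0.76).

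SLA-DQB1 is the beta chain that pairs with SLA-DQA1. Its probe A_72_P039061 had values of 5.01, 5.56 and 5.87 (lowest, median, highest) in low RFI LF pigs and 4.56, 5.55 and 6.18 in low RFI HF pigs. In high RFI pigs they were 5.40, 5.79 and 6.35 on LF and 5.42, 5.81 and 6.22 on HF. The groups overlapped widely, and 14 of 24 low RFI pigs were under the high RFI median, with a lower tail in the low RFI line. The difference was -0.29 (SE 0.09, FC -1.23, limma P = 0.0030, BH-adjusted P = 0.082) and was below 0 on all 6 slides, from -0.04 to -0.63.

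The other 3 SLA-DQB1 probes did not pass. A_72_P585101 was at -0.09 (SE 0.18, limma P = 0.60), A_72_P672583 at -0.17 (SE 0.11, limma P = 0.15) and A_72_P631166 at 0.15 (SE 0.11, limma P = 0.19). The last of these was above 0 on 5 of 6 slides, the opposite direction to A_72_P039061. A_72_P585101 ranged from 3.83 to 6.25 in low RFI pigs and from 4.03 to 5.87 in high RFI pigs, with SDs of 0.70 and 0.52. A_72_P585101 and A_72_P039061 share a run of 17 bases, and over the 48 pigs their Pearson r, with the group means subtracted, was 0.39 (permutation P = 0.013, Spearman rho = 0.33 with permutation P = 0.031, r = 0.29 without the 2 pigs farthest out).

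SLA-DRB1 is the beta chain of the DR pair, and all 4 of its probes passed the criterion in limma, 3 of them also in the analysis of variance. The differences were -0.35 (SE 0.12) at A_72_P110316, -0.35 (SE 0.13) at A_72_P079096, -0.37 (SE 0.12) at A_72_P545751 and -0.38 (SE 0.13) at A_72_P626735. The FC was -1.27 to -1.30, the limma P-values were 0.0039 to 0.0090 and the BH-adjusted P-values 0.097 to 0.161. At A_72_P626735 the values were 2.95, 3.74 and 4.31 (lowest, median, highest) in low RFI LF pigs and 3.24, 3.68 and 4.68 in low RFI HF pigs. In high RFI pigs they were 3.52, 4.33 and 4.80 on LF and 3.57, 4.23 and 4.81 on HF. Groups overlapped over most of their range, and 20 of 24 low RFI pigs were under the high RFI median.

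For SLA-DRB1 the line difference was uneven over the slides. At A_72_P626735 it was -1.07 on slide 6 and -0.64 on slide 2, but 0.25 on slide 3, and the other 3 probes were likewise above 0 on slide 3 alone, at 0.21 to 0.23. With slide fitted as a block, all 4 probes stayed past the criterion. With 1 pig left out at a time, the P-value of A_72_P110316 passed 0.01 in 20 of 48 refits and that of A_72_P079096 in 26, for pigs of every group and up to 0.0169, whereas A_72_P545751 and A_72_P626735 kept the criterion in all refits. The difference stayed between -0.31 and -0.42 at all 4 probes in these refits.

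**Figure D4:**
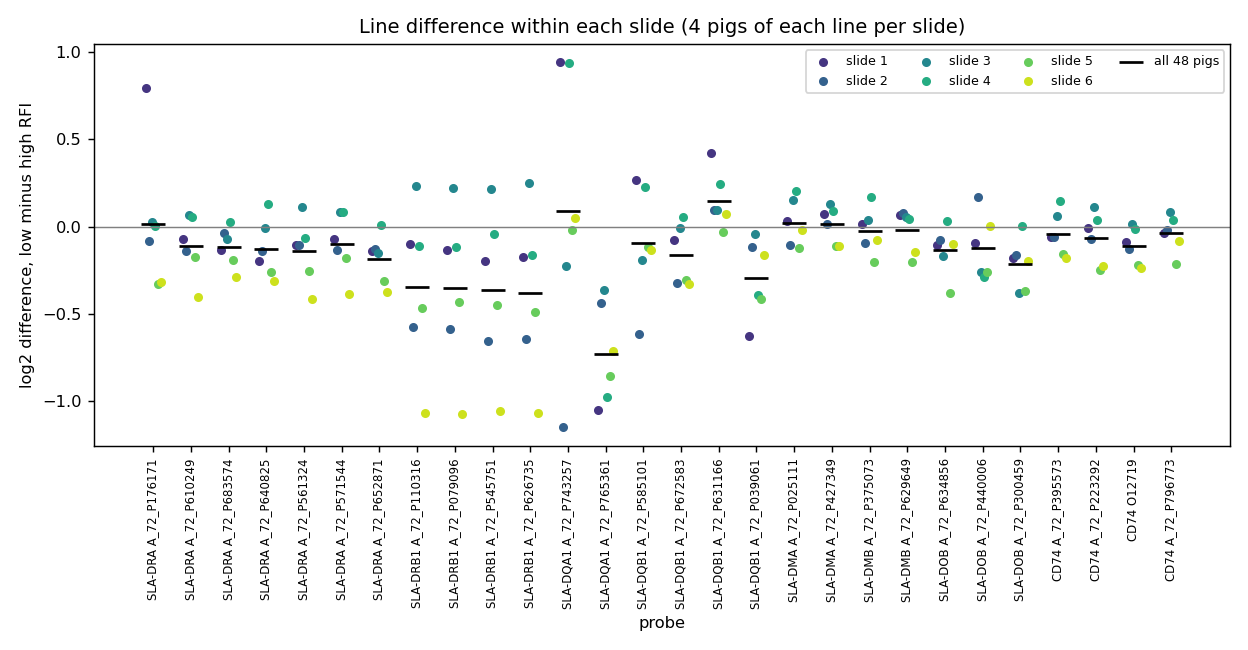
Line difference on the log2 scale (low minus high RFI) within each of the 6 slides, 4 pigs of each line per slide, for the 28 member probes, with the value over all 48 pigs as a black bar. SLA-DQA1 A_72_P765361 and SLA-DQB1 A_72_P039061 are below 0 on every slide, the 4 SLA-DRB1 probes are above 0 on slide 3, and SLA-DQA1 A_72_P743257 spans -1.15 to 0.94.

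SLA-DRA, the alpha chain of DR, had 7 probes, of which 6 had lower values in low RFI pigs, between -0.10 and -0.18, and 0 passed the criterion. At an unadjusted limma P-value under 0.05 there was 1. This was A_72_P652871 at -0.18 (SE 0.08, limma P = 0.027, BH-adjusted P = 0.30), whose medians were 6.09 and 6.25 in low RFI (LF, HF) and 6.38 and 6.28 in high RFI pigs. At A_72_P683574 the difference was -0.12 (SE 0.08, limma P = 0.14), and 18 of 24 low RFI pigs were under the high RFI median.

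A single SLA-DRA value stood far from the rest. At A_72_P176171, high RFI LF replicate 1 had 3.35, which is 2.37 below the next pig, while the other 11 pigs of its group had 6.35 to 6.81. A_72_P683574 shares 37 bases with this probe, and there the same pig had 6.68, within its group's range of 6.18 to 7.08. With all pigs the line difference at A_72_P176171 was 0.01 (SE 0.15, limma P = 0.92), and without this pig it was -0.12 (limma P = 0.11, BH-adjusted P = 0.59).

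The chaperones of the pathway did not differ between the lines by the criterion. SLA-DMA, the DM alpha chain, was at 0.02 (SE 0.06) and 0.01 (SE 0.07), and SLA-DMB, the DM beta chain, at -0.03 (SE 0.07) and -0.02 (SE 0.07), with limma P-values of 0.69 to 0.85. SLA-DMA A_72_P025111 had medians of 4.81 and 4.95 in low RFI (LF, HF) and 4.93 and 4.79 in high RFI pigs. SLA-DOB, the DO beta chain, was lower at 3 of 3 probes without passing, at -0.12 (SE 0.08), -0.13 (SE 0.09) and, for A_72_P300459, -0.22 (SE 0.09, limma P = 0.022, BH-adjusted P = 0.26). At this last probe 19 of 24 low RFI pigs were under the high RFI median, and it passed in 3 of the other settings, with a lowest limma P-value of 0.0059. CD74 was lower at 4 of 4 probes, by -0.04 to -0.11 with SEs of 0.06 to 0.07 and limma P-values of 0.096 to 0.53. Its probe A_72_P395573 had medians of 3.62 and 3.64 in low RFI (LF, HF) and of 3.72 and 3.70 in high RFI pigs, and 13 of 24 low RFI pigs were under the high RFI median. The 2 spots that RefSeq gives to SLA-DOA were at 0.10 (SE 0.13) and 0.08 (SE 0.15). The study lists SLA-DOA among the genes underexpressed in low RFI pigs. Which spot it read was not identified here, so other spots may measure this gene.

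The second question was whether the diet changed class II transcripts. By limma, 0 of the 28 member probes passed the criterion for diet, where 0.245% of all retained probes did, and 0 had an unadjusted P-value under 0.05. A probe-wise analysis of variance gave the same counts of 0. Differences (HF minus LF) ran from -0.11 at SLA-DMB A_72_P629649, with the lowest P-value of 0.117, to 0.13 at SLA-DOB A_72_P300459, and their median was 0.017 against 0.0073 over all retained probes. For SLA-DQA1 A_72_P765361 the diet difference was 0.08 (SE 0.11).

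The third question was whether the diet changed the line difference. For the line by diet interaction, 0 of the 28 probes had a limma P-value under 0.01, where 0.264% of all retained probes did, and 0 were under 0.05 by limma or by the probe-wise analysis of variance. The lowest P-value was 0.136, at SLA-DMA A_72_P025111, where the line difference was 0.12 in pigs fed HF and -0.07 in pigs fed LF. The largest interaction was 0.24 (SE 0.25) at SLA-DRB1 A_72_P110316, where the line difference was -0.23 on HF and -0.47 on LF. A P-value above the threshold does not show that the diets or the lines on either diet were alike.

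Within the lines, low RFI pigs varied more among themselves. The SD over the 24 pigs of a line was higher in low RFI pigs at 27 of the 28 member probes, with a median SD of 0.33 against 0.23 in high RFI pigs. Over all retained probes 49.4% had the higher SD in low RFI pigs, and the median SDs were 0.26 and 0.26. The exception was SLA-DRA A_72_P176171, through the single pig described above. These probes share pigs and transcripts, and the difference in spread was not tested.

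The class II probes varied together from pig to pig. With group means subtracted, Pearson r was above 0 for 346 of 351 pairs of member probes, leaving out the clustered SLA-DQA1 probe A_72_P743257, and for 285 of these the BH-adjusted permutation P-value (100000 permutations of pigs within groups, 435 pairs tested) was under 0.05. The weakest r among these was 0.272, and 83.8% of the member pairs reached it, against 25.0% of all pairs of retained probes. Many member pairs are probes of 1 gene, and these shares are given without a test. The 5 pairs under 0 were those of SLA-DOB A_72_P440006 with the 4 SLA-DRB1 probes and with SLA-DMA A_72_P025111, from -0.15 to -0.02, and 0 of them passed. The 4 SLA-DRB1 probes had r of 0.93 to 0.97 with each other. SLA-DMA A_72_P025111 and SLA-DMB A_72_P375073, the partners of the DM pair, had r = 0.89 (Spearman rho = 0.81, each permutation P = 1e-05, the smallest that 100000 permutations give, and r = 0.84 without the 2 pigs farthest out). SLA-DRA A_72_P561324 and SLA-DMA A_72_P427349 had the same r of 0.89 (rho = 0.84, each permutation P = 1e-05, r = 0.86 without 2 pigs). SLA-DRA and SLA-DRB1, the partners of the DR pair, had a median r of 0.51 over 28 probe pairs, beside 0.96 among SLA-DRB1 probes and 0.77 among SLA-DRA probes.

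**Figure D5:**
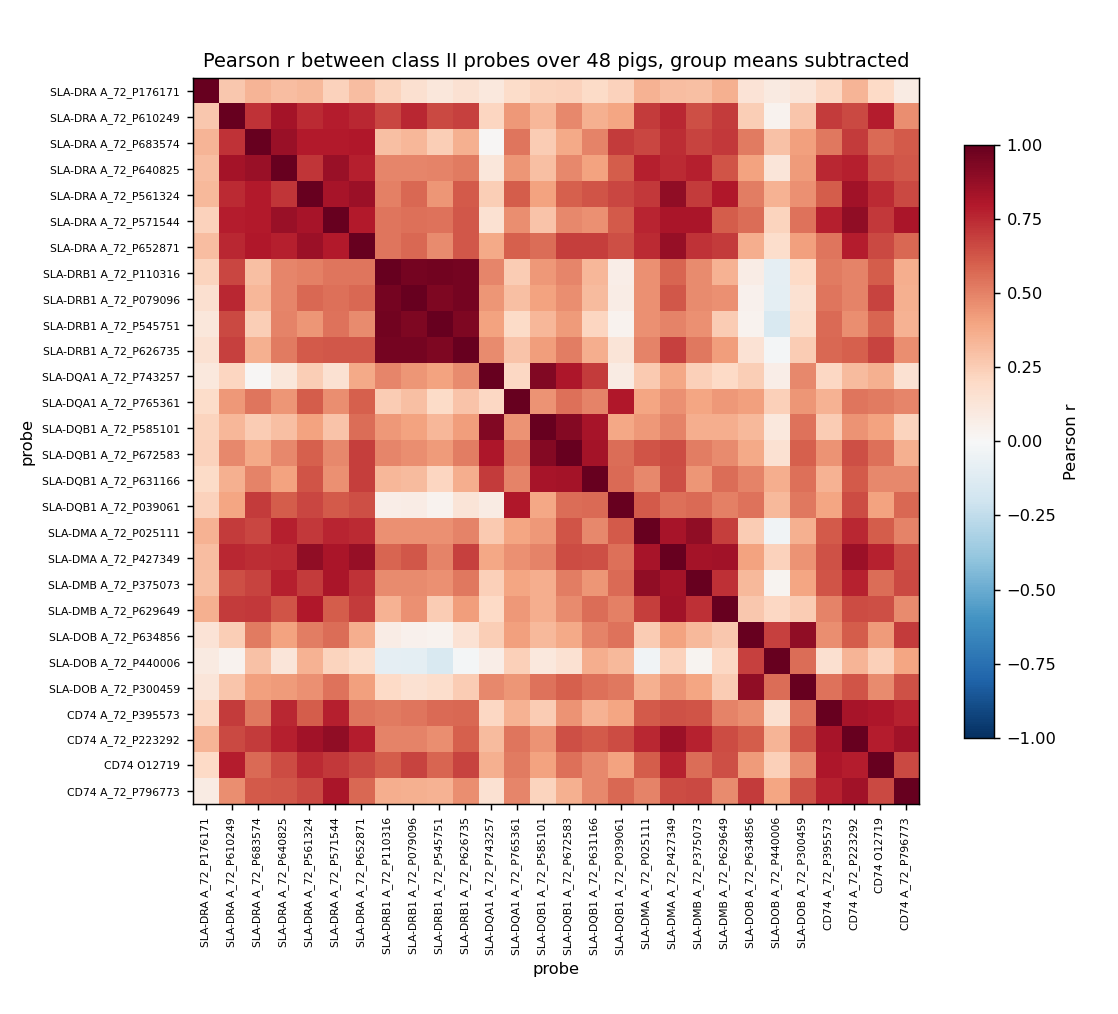
Pearson r over 48 pigs between the 28 member probes, with group means subtracted (colour scale from -1 to 1, rows and columns in the same order, the clustered SLA-DQA1 probe A_72_P743257 included). The 4 SLA-DRB1 probes have r of 0.93 to 0.97 with each other, and SLA-DQA1 A_72_P765361 has r = 0.80 with SLA-DQB1 A_72_P039061.

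Among the DQ probes, SLA-DQA1 A_72_P765361 went with SLA-DQB1 A_72_P039061 (r = 0.80, rho = 0.82, each permutation P = 1e-05, r = 0.75 without 2 pigs). As the pigs are clustered at the other SLA-DQA1 probe, A_72_P743257, its r is described on either side of the gap. The gap was found in these values, so no test is given, and the 32 pigs above it still hold the separate arms seen in the plot of overlapping DQ alpha probes. Among these 32 pigs r was 0.77 with SLA-DQB1 A_72_P585101, 0.73 with A_72_P631166, 0.56 with A_72_P672583 and -0.04 with A_72_P039061. With SLA-DQA A_72_P763148 it was 0.08 and with SLA-DQA1 A_72_P765361 it was -0.27. Among the 16 pigs below the gap r was 0.52, 0.23, 0.67 and 0.49 with the same SLA-DQB1 probes in that order, 0.85 with A_72_P763148 and 0.74 with A_72_P765361.

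The other 27 class II probes were also set against the mean of each list of cell markers, with group means subtracted and 224 permutation tests, those of A_72_P743257 included, adjusted together. With the B cell mean, r was above 0 at all 27 probes, with a median of 0.545 and a range of 0.17 to 0.75, and 20 of 27 passed an adjusted P-value of 0.05. The weakest of the 20 had r = 0.38, which 10.4% of all retained probes reached. CD74 A_72_P223292 had the highest value (r = 0.75, rho = 0.70, BH-adjusted permutation P = 0.00075 and 0.0011, r = 0.69 without 2 pigs). The 4 SLA-DRB1 probes were among the lower ones, at 0.29 to 0.38, with rho of 0.20 to 0.30. With the monocyte mean 0 of 27 passed (r from -0.09 to 0.33), and with the neutrophil mean 0 passed (r from -0.08 to 0.33). With the red cell mean r was under 0 at all 27, from -0.58 to -0.12, and 12 passed (44.4% of the 27), while 32.1% of all retained probes were as far below 0 as the weakest of them. The 2-gene dendritic cell mean gave r of -0.55 to 0.06 with 7 passing under 0 (25.9%, against 27.3% of all retained probes), and the platelet mean -0.54 to 0.12 with 4 under 0 (14.8%, against 1.12%). The T cell mean gave 0.06 to 0.42 with 6 above 0 (22.2%, against 30.2%), and the NK cell mean 0.10 to 0.43 with 9 above 0 (33.3%, against 16.9%). Shares near those of all probes say nothing particular about class II genes. All values of a pig share its array, its depth of signal and the centring on its median.

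Outside the class II probes, the genes whose pattern was most like that of the CD74 probe of highest mean value over the 48 pigs were, in rank order, CD79A (r = 0.72), a signalling chain of the B cell receptor, ANGPTL4 (r = 0.68), C1ORF170 (r = 0.67), CD72 (r = 0.66), a B cell surface protein, SERPINI1 (r = 0.64) and CD79B (r = 0.62), the partner of CD79A. For the SLA-DRA probe of highest mean value they were ARHGAP17 (r = 0.78), ATP2A1 (r = 0.76), C17ORF59 and LIMD1 (r = 0.75 each) and LMAN2L and VCP (r = 0.74 each). LIMD1 was on both lists of 10. These r values head a ranking of named probes without the class II probes and are descriptions without a test. Class II probes themselves reached similar or higher values, such as SLA-DRA A_72_P571544 with the CD74 probe (r = 0.78). Of these 10 for CD74, CD72 was lower in low RFI pigs at -0.33 (limma P = 0.00015, BH-adjusted P = 0.011), and for SLA-DRA none had an adjusted P-value under 0.05.

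The genes that act around class II were read from lists. CIITA acts on class II promoters through the enhanceosome, the RFX and NF-Y complexes with CREB1, and all 7 of its listed genes were found. Of their 14 probes 6 were lower in low RFI pigs, 0 passed the criterion, and the median difference was 0.01. Of 25 probes of 7 genes that carry the interferon-gamma signal toward CIITA, 18 were lower, 5 passed as lower and the median was -0.05. Among those that passed was 1 probe of JAK2, a kinase of this signal, at -0.37 (SE 0.09, limma adjusted P = 0.018). The other JAK2 probes were at -0.04 and 0.09.

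Of antigen processing in the endosome, 19 probes of 7 genes were found, where 8 were lower, 0 passed and the median was 0.03. Of 11 probes of the costimulatory receptors CD40, CD80 and CD86, 9 were lower and 4 passed, all of CD40, which B cells use to receive T cell help. CD40 was at -0.29 to -0.36 with limma adjusted P-values of 0.0071 to 0.035. Among genes of class II turnover at the surface, CD83, which stabilises class II, was at -0.35 (SE 0.12, limma P = 0.0046), and IL10, which lowers surface class II, at -0.24 (SE 0.08, limma P = 0.0058). MARCH8, a ubiquitin ligase that removes class II from the surface, was higher at 0.24 (SE 0.07, limma P = 0.0024, BH-adjusted P = 0.071), and its other probe was at -0.06. The other IL10 probes were both at -0.24 without passing. The 2 coreceptors that bind class II, CD4 and LAG3, had 1 probe each, with differences of -0.02 and 0.13, and 0 passed. In all 6 lists 0 probes passed the criterion for diet.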

How the data were processed

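Blood RNA of 48 pigs was hybridized to 1-colour 60K porcine arrays. The authors extracted spot intensities and quality calls (0 or 1) from the scans, and deposited log2 intensities of the spots that passed their filter, centred on each array's median (R 3.0.2, per the submitters' processing notes). Of 60306 non-control spots, 23193 were not retained. The damaged column of 1 pig was rebuilt from its deposited scanner intensities in the same way.

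Groups were taken from the labels. Line, diet and their interaction were fitted to all 37113 spots with limma 3.58.1 (R 4.3.3), with BH adjustment over all spots. Correlations were computed in Python 3.11.15 (scipy 1.17.1, numpy 2.4.6) and drawn with matplotlib 3.10.9 from tables read by pandas 2.3.3, and the fit was tested on simulated data. Member probes not named in the text are labelled in the figure of line differences. The 10 named genes most like each anchor probe were ranked, and not all of them are listed. Alternatives were other signals, normalizations, filters and blocks, an analysis of variance of each probe, and leaving out each pig. The members and lists were chosen with earlier results of these data known. Probe sequences are those of the scanner files. Promoter and protein sequences were not used here. Some genes of the lists are counted but not reported here by name.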

Additional observations from a re-analysis of the deposited data

How the results depend on the processing

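The count of 6 class II probes past the criterion for line was 1 to 7 over the other settings. It was 7 with the processed signal centred on the array median, with the processed signal minus the 75th percentile and with the replicate number as a block, SLA-DOB A_72_P300459 being added each time, 5 with an analysis of variance of each probe, and 1 with the damaged column left in, where the median line difference of all probes was -0.10 and 2.71% of all probes passed. With 1 pig left out it was 4 to 8. The count under a BH-adjusted P-value of 0.05 was 1 in the report and 2 with the processed signal minus the 75th percentile, with normexp and quantile normalization, with slide as a block, with scan day as a block and with the replicate block, and 1 to 2 with 1 pig left out. The added probe was SLA-DQB1 A_72_P039061 in these settings and without low RFI HF replicate 11, and SLA-DRB1 A_72_P545751 without low RFI LF replicate 8. The cause was not tested. SLA-DQA1 A_72_P765361 stayed at -0.78 to -0.70 in the 48 refits. Diet and interaction counts were 0 in all settings. The labels do not say what a replicate number marks. As a hint from the data, 22 of 48 pigs correlated best with a pig of their own number, but pairs of 1 number went down to r = -0.60, and the numbers were not used as pairs in the report. The 6 called class II probes kept their direction in these settings. Values of the related probes and the list probes in these settings were not examined. Each class II probe was well above background on every array. SLA-DOB A_72_P634856 and A_72_P440006, whose mean values lie below the array median, still changed with the processing. With the damaged column set aside, their line differences over the other settings were -0.12 to -0.21 and -0.09 to -0.23. The role of background was not tested.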
